A study of Bos taurus and Bos frontalis with 6 samples.

Results

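The genes described here are 39 that were at least 4-fold lower in the back muscle of Gayal (Bos frontalis) than in that of Banna cattle (listed by the labels as Bos taurus) in each of 2 batches. Their counts came from 6 RNA libraries of the longissimus dorsi, the long muscle beside the spine, 3 from each species, all from animals labelled 3.5 ± 0.5 years old. The deposited sample sheet places 3 libraries in batch A (Gayal replicate 1 with Banna replicates 1 and 2) and 3 in batch B (Gayal replicates 2 and 3 with Banna replicate 3), without saying what the batch stands for. It gives the fibre class as coarse for every Banna library and fine for every Gayal library. Species, fibre class and relation to the reference genome, a cattle build for both species, therefore cannot be told apart.

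Levels are counts scaled to a common library total (counts per 1000000, CPM). The table held 27270 genes, of which 14084 had 10 or more counts in at least 3 of the 6 libraries. A gene was a member when its mean log2(CPM + 0.1) was lower in Gayal by 2 or more in batch A and also in batch B. Members are thus chosen by the species difference itself, so that difference is a description here and carries no test. All 39 had 10 or more counts in each Banna library, whereas 8 had fewer than 10 counts in every Gayal library, so those 8 were kept through Banna alone. In 17 members at least 1 Gayal library was at 0, and no Banna library was at 0 for any member. The lowest Banna value of any member was 12 counts.

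Back muscle is built of long fibres that range from slow, oxidative ones rich in mitochondria to fast, glycolytic ones. Fat cells, blood vessels, nerves, connective tissue and blood lie between them. RNA from a whole piece of muscle mixes all of these, so fewer cells of a type and less RNA per cell cannot be told apart. The files name genes by Ensembl cattle identifiers alone, and the reference list of cattle genes used here holds 0 of them. The members' functions and chromosomes are therefore not reported, and the muscle label was not checked against marker genes. Members are numbered below by their mean level in Banna muscle, from member 1, the most abundant, to member 39. Only the identifiers of the leading 2 are printed.

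Library totals ran from 53979857 estimated counts in Gayal replicate 1 to 90313051 in Banna replicate 3. Low counts clustered at multiples of a spacing, called a step here. The step followed the batch. In batch A it was 3.33 in Banna replicates 1 and 2 and 3.31 in Gayal replicate 1. It was 4 in every batch B library. In steps, the totals ran from 16308114 in Gayal replicate 1 to 26844705 in Banna replicate 1. The members made up 1.55%, 2.93% and 0.26% of the counts in Banna replicates 1, 2 and 3, and 0.209%, 0.0607% and 0.0246% in Gayal replicates 1, 2 and 3. The 95% Wilson intervals, which cover counting error only, ran from 2.92% to 2.93% for the largest share and from 0.0239% to 0.0253% for the smallest. Without members 1 and 2 the share was 0.162%, 0.463% and 0.171% in Banna and 0.027%, 0.0148% and 0.0174% in Gayal. The median member stood at 2.91, 5.08 and 2.96 CPM in the 3 Banna libraries and at 0.371, 0.36 and 0.351 CPM in the 3 Gayal libraries. The members' median was thus close to equal in the Gayal libraries, from both batches, while that of Banna replicate 2 stood above the other two.

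Few genes met the rule in both batches. In batch A, 254 genes were 4-fold or more lower in Gayal, 1.8% of the 14084, and in batch B 300 were, 2.13%. The 39 members are 15.4% of the genes lower in batch A and 13% of those lower in batch B. The 2 differences come from separate libraries. In the opposite sense, 12 of the 254 genes were 4-fold or more higher in Gayal in batch B, and 35 of the 300 were 4-fold or more higher in batch A. Among all 14084 kept genes, 320 were 4-fold or more higher in batch B and 426 in batch A. The 215 genes that met the limit in batch A only had a median difference of -0.41 (log2) in batch B, and the 261 that met it in batch B only had a median of 0.21 in batch A. Over all kept genes the median was 0.13 in batch A and 0.01 in batch B.

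**Figure D1:**
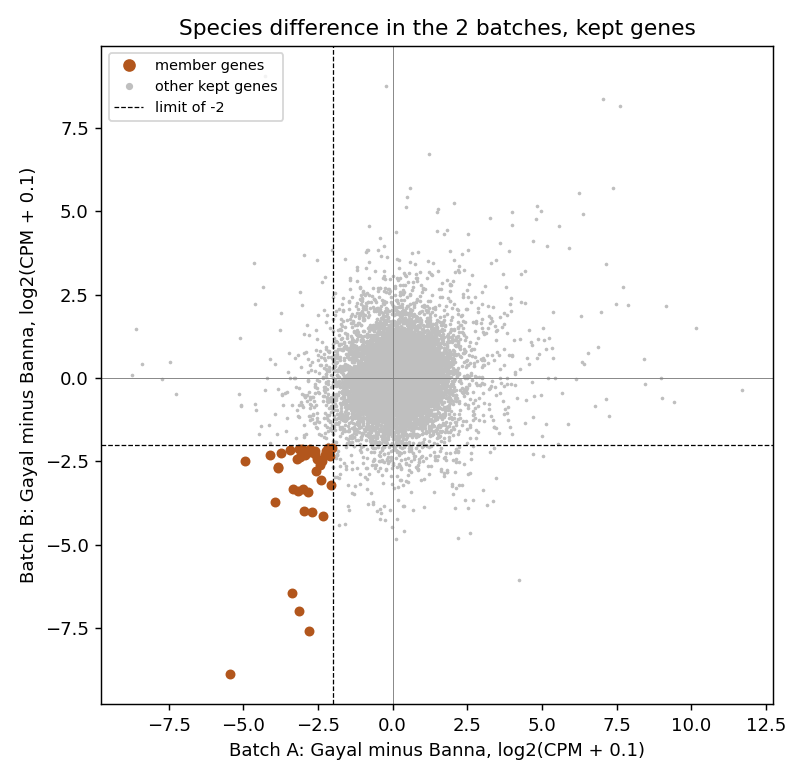
Gayal minus Banna difference of mean log2(CPM + 0.1) in batch A (x axis) and in batch B (y axis) for the 14084 kept genes, with the 39 members in orange and dashed lines at the limit of -2. Most members lie near the corner set by the limits, and 4 lie below -6 in batch B.

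Most members were close to the limit. In batch A the members' differences ran from -5.44 to -2.03 with a median of -2.81, and in batch B from -8.89 to -2.10 with a median of -2.48. A difference of 8-fold or more (-3 on the log2 scale) was reached by 17 members in batch A, by 14 in batch B and by 7 in both. One of 16-fold or more was reached by 3 members in batch A and 6 in batch B. The batch with the larger difference was A for 20 members and B for 19, and 25 members had differences within 1 log2 unit of each other. For 25 members the smaller of the 2 differences lay between -2.5 and -2. Just inside the limit were members 22, 34 and 37, with smaller differences of -2.03, -2.05 and -2.09. The nearest genes outside it stood at -1.996, -1.98 and -1.98.

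**Figure D2:**
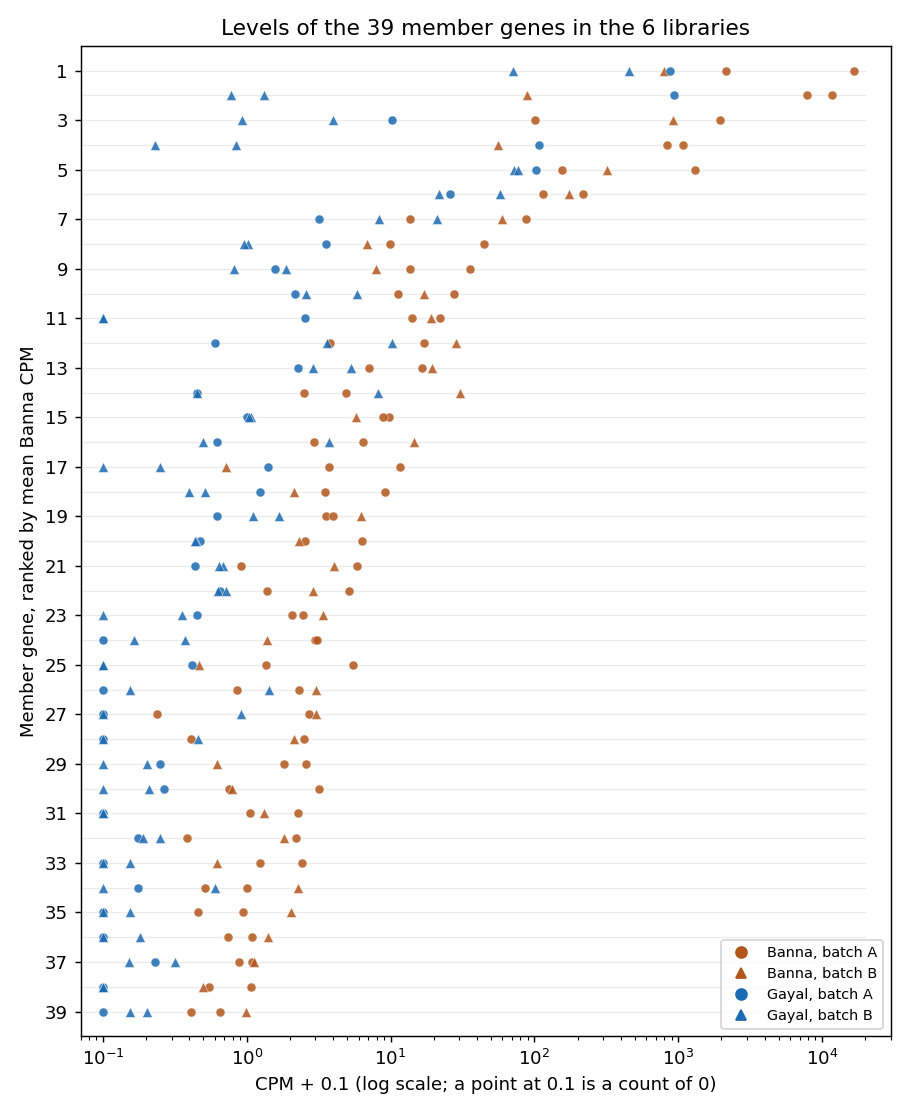
CPM + 0.1 (x axis, log scale) of each member (y axis, ranked by mean Banna CPM) in the 6 libraries, with species by colour and batch by symbol. Within each batch all Gayal points lie left of all Banna points for every member, and points at 0.1 mark libraries with a count of 0.

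For every member the Gayal libraries lay below the Banna libraries within batch A and within batch B, which held for 11.2% of the kept genes. The rule works on means within a batch, so it fixes most of this. Over all 6 libraries the species did not overlap for 27 of the 39 members, where 3.98% of the kept genes had their 3 Gayal libraries under all 3 Banna libraries. Nothing is read from these shares, since the rule used the same contrast. The other 12 overlapped only across batches. In 4 of them, members 1, 2, 4 and 17, Banna replicate 3 of batch B lay below Gayal replicate 1 of batch A. In the other 8 a Banna library of batch A lay below a Gayal library of batch B.

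The 6 most abundant members had Banna means of 168 to 6581 CPM. Member 1, ENSBTAG00000031217, was at 2159, 16789 and 795 CPM in Banna replicates 1, 2 and 3, and at 884, 458 and 70.5 CPM in Gayal replicates 1, 2 and 3. Banna replicate 2 stood far above the other 5 libraries, and Gayal replicate 1 was above Banna replicate 3. The means were 6581 ± 8867 CPM in Banna and 471 ± 407 CPM in Gayal (SD, n = 3). Its difference was -2.77 in batch A and -2.14 in batch B. Without Banna replicate 2, or without Gayal replicate 3, member 1 no longer met the rule.

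Member 2, ENSBTAG00000043560, was at 11724, 7848 and 89.5 CPM in the Banna libraries and at 932, 0.682 and 1.21 CPM in the Gayal libraries, in the same order. Within each species every batch A library was far above every batch B library, and the 932 CPM of Gayal replicate 1 exceeded Banna replicate 3. Means were 6554 ± 5924 CPM in Banna and 311 ± 537 CPM in Gayal (SD, n = 3). The difference was -3.36 in batch A and -6.47 in batch B.

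Member 4 had the same order of libraries. It was at 1085, 842 and 55.6 CPM in Banna and at 109, 0.129 and 0.742 CPM in Gayal. The level of member 2 was 10.8, 9.32 and 1.61 times that of member 4 in the Banna libraries and 8.59, 5.3 and 1.64 times in the Gayal libraries. These ratios compare counts of genes of unknown length, so only their change between libraries can be read. The ratio was highest in the 3 libraries of batch A. Gayal replicate 2 had only 10 counts of member 4.

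The largest difference in both batches belonged to member 3. It was at 102, 1944 and 914 CPM in Banna and at 10.2, 0.824 and 3.9 CPM in Gayal. The lowest Banna library was 9.99 times the highest Gayal library, the widest gap among the members with a count in Gayal. The difference was -5.44 in batch A and -8.89 in batch B, and the means were 987 ± 923 CPM in Banna and 4.96 ± 4.76 CPM in Gayal (SD, n = 3). Banna replicates differed among themselves by 19.1-fold.

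Members 5 and 6 were still well expressed in Gayal. Member 5 was at 157, 1321 and 318 CPM in Banna and at 103, 72.1 and 76.7 CPM in Gayal, a spread within Gayal of 1.42-fold. The species did not overlap, but Banna replicate 1 was only 1.53 times the highest Gayal library. Member 6 was at 115, 217 and 173 CPM in Banna and at 26, 21.5 and 57.6 CPM in Gayal. It was the only one of the 6 whose Banna libraries lay within 2-fold of each other.

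**Figure D3:**
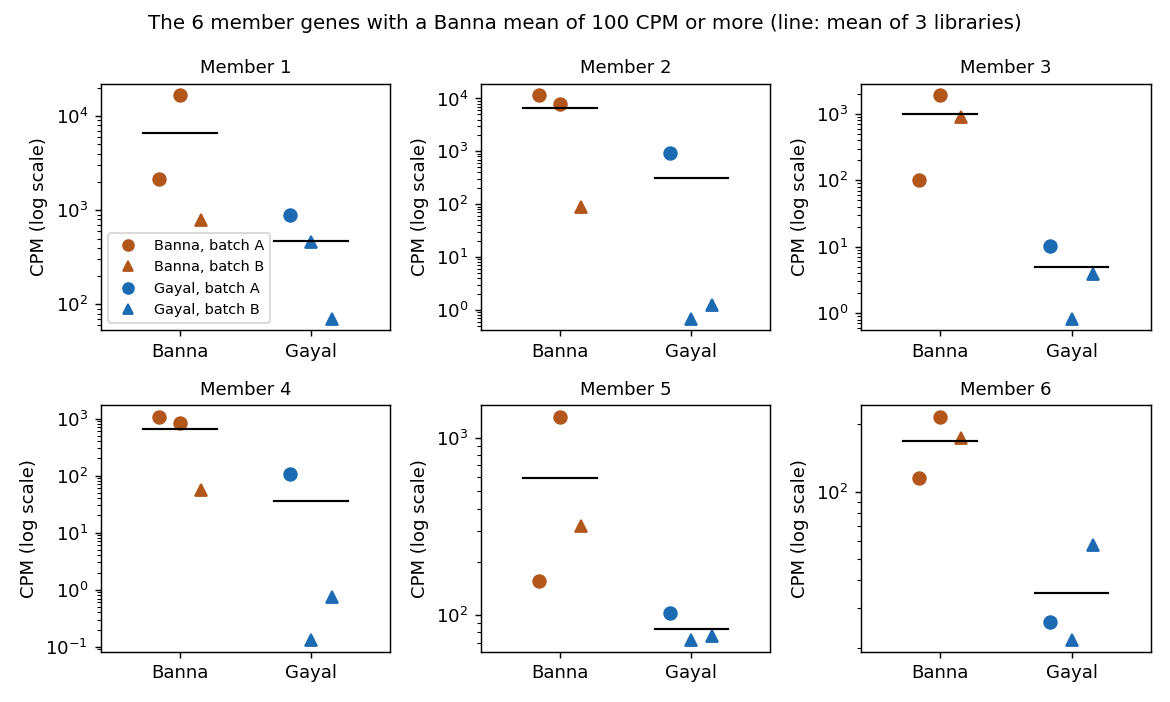
CPM (y axis, log scale, a different range in each panel) of members 1 to 6 in the 3 Banna and 3 Gayal libraries, with batch by symbol and a line at the mean of 3 libraries. In members 2 and 4 the batch A symbols stand far above the batch B symbols of the same species, and members 3, 5 and 6 show no overlap of the species.

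Members 7 to 14 had Banna means of 12.5 to 53.6 CPM and Gayal means of 0.815 to 10.8 CPM, and 5 of the 8 separated the species. Member 11 was at 21.9, 14 and 19 CPM in Banna. In Gayal it was at 2.45 CPM in replicate 1 and at 0 in replicates 2 and 3. Its Banna libraries agreed within 1.56-fold, and its difference of -7.58 in batch B rests on those 2 counts of 0 and on the added 0.1 CPM. Member 9 was at 35.9, 13.5 and 7.77 CPM in Banna and at 1.46, 1.76 and 0.715 CPM in Gayal, with no overlap. Member 14 was at 4.81, 2.41 and 30.3 CPM in Banna and at 0.352, 8.12 and 0.351 CPM in Gayal, where replicate 2 was above 2 of the Banna libraries.

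Of the 21 members with a Banna mean of 1 to 10 CPM, numbered 15 to 35, 15 separated the species and 13 were at 0 in at least 1 Gayal library. Member 15 was at 9.72, 8.76 and 5.61 CPM in Banna and at 0.908, 0.978 and 0.931 CPM in Gayal. It had the smallest spread of all members with counts in Gayal, 1.07-fold. Member 20 was at 6.22, 2.45 and 2.2 CPM in Banna and at 0.371, 0.348 and 0.337 CPM in Gayal, again close to equal in the 3 Gayal libraries. Members 15 and 20 each kept the rule when any 1 of Banna replicates 1 and 2 and Gayal replicates 2 and 3 was left out.

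Others in that range had uneven Banna libraries. Member 27 was at 2.62, 0.138 and 2.93 CPM in Banna and at 0, 0 and 0.809 CPM in Gayal. Banna replicate 2, with 12 counts, lay below Gayal replicate 3, with 60. Member 28 was at 2.39, 0.31 and 2.05 CPM in Banna and at 0, 0.36 and 0 CPM in Gayal, with the same library of Banna below a Gayal one. Both members were nevertheless 8-fold or more lower in Gayal in each batch by the rule, as were members 2, 3, 4, 31 and 36. Members 27, 28, 31 and 36 had a count of 0 in Gayal replicate 1. Their batch A differences therefore rest on the added 0.1 CPM, which is below 3 steps in that library, 0.184 CPM. In batch B, Gayal replicate 2 was at 0 for members 27, 31 and 36, and Gayal replicate 3 for members 28 and 31. The batch B differences of these members therefore also depend on the added 0.1 CPM.

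Members 31 and 38 were at 0 in all 3 Gayal libraries. Member 31 had 85, 190 and 110 counts in the Banna libraries (0.951, 2.18 and 1.22 CPM), and member 38 had 40, 84 and 36 counts (0.447, 0.963 and 0.399 CPM). Against a floor of 3 steps over the 3 Gayal libraries together, the Banna level was 26.6-fold for member 31 and 11-fold for member 38. The floor covers counting error in Gayal only, so these are not lower bounds. With counting error in Banna included, the 95% exact Poisson interval of the Banna to Gayal ratio began at 21.2 for member 31 and 8.59 for member 38.

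The 4 members under 1 CPM in Banna, numbered 36 to 39, all separated the species. Member 37 had the most even Banna libraries of all members, at 0.783, 0.986 and 1.02 CPM, against 0.13, 0.0515 and 0.216 CPM in Gayal. Member 36 was at 0.984, 0.642 and 1.31 CPM in Banna, and in Gayal it was counted only in replicate 3, at 0.0809 CPM.

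With counts divided by the step and pooled by species, the Banna to Gayal ratio of the 37 members counted in Gayal ran from 3.17 to 210 with a median of 10.6. The 95% exact Poisson interval lay wholly above 4 for 28 of the 39 members, including members 31 and 38. Its lowest bound for any member was 2.54. Members 33, 35, 36 and 39 rested on 1, 1, 2 and 3 Gayal steps. Their ratios were 74.6 (95% exact Poisson interval 13.1 to 2976), 54.5 (9.5 to 2182), 26.2 (7 to 220) and 10.3 (3.29 to 51.8). These intervals leave out the spread between libraries, which was far larger for the abundant members. Nothing is read from the number above 4, since the rule chose members at 4-fold or more in these same libraries.

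The Banna libraries of the members differed widely among themselves. The highest Banna library was a median of 4.28-fold above the lowest over the members, with 0.1 CPM added to each, and 2.32-fold over all kept genes. A spread of 4-fold or more was found in 22 members, 56.4%, against 21.2% of the kept genes. Under 2-fold were 7 members, 17.9%, against 38.7%. The rule used the same libraries, so these shares are a description with no test. In Gayal the medians were 2.71-fold for the members and 2.32-fold for the kept genes, where members 31 and 38, at 0 throughout Gayal, count as 1-fold. The biological coefficient of variation from edgeR is meant as the spread between libraries left after species, batch and counting error. Its median was 0.687 over the members and 0.413 over all genes tested, and 35 members lay above the latter. The fit took counts not divided by the step, so some counting error may remain in these values, most for low members.

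**Figure D4:**
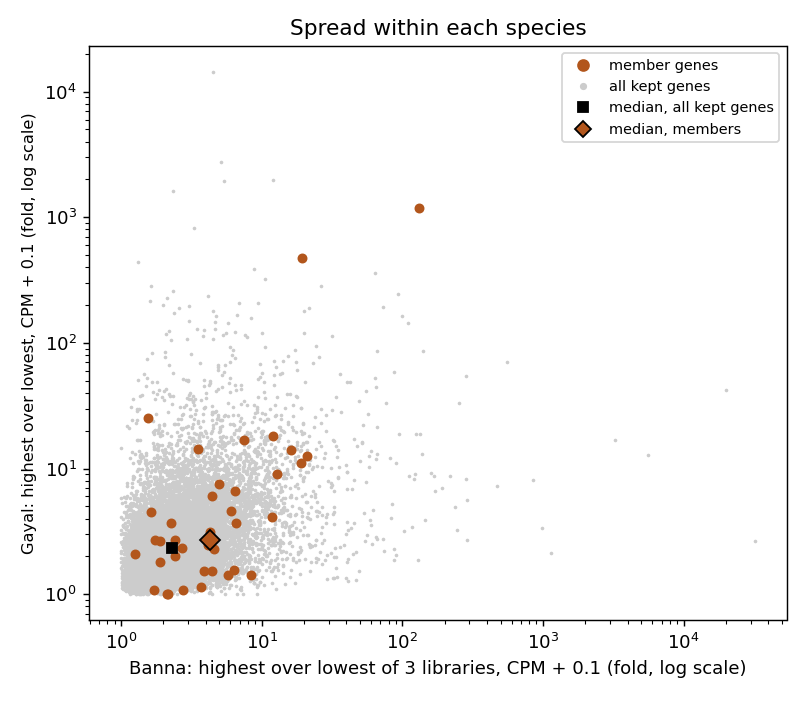
Highest over lowest library in Banna (x axis) and in Gayal (y axis), as fold of CPM + 0.1 on log scales, for members and all kept genes. The median of the members lies at 4.28-fold in Banna and 2.71-fold in Gayal, and that of all kept genes at 2.32-fold in both.

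Different Banna libraries were the highest in different members. Banna replicate 2 was the highest of the 3 for 17 members, replicate 3 for 13 and replicate 1 for 9. These are 43.6%, 33.3% and 23.1% of the members, and over the kept genes the shares were 44.4%, 40.4% and 15.2%. In 28 members a single Banna library held over 50% of the summed Banna CPM. That library was replicate 2 in 14 of them, and replicates 1 and 3 in 7 each. The matching share of the kept genes was not worked out, so no trait of the members is read from this count. Without Banna replicate 2, 27 of the 39 members still met the rule, and without Banna replicate 1, 37 did. Without Gayal replicate 2 the number was 28, and without Gayal replicate 3 it was 33. In all 4 of these settings 15 members met it, numbers 2, 3, 4, 9, 11, 15, 20, 23, 28, 31, 33, 35, 36, 38 and 39. These settings reapply the rule to libraries that chose the members, so they are a description with no test. Leaving out Banna replicate 3 or Gayal replicate 1 leaves 1 batch with a single species, so the rule could not be applied to both batches.

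As a description of the same contrast, edgeR's quasi-likelihood test with species and batch as terms, adjusted over 14112 genes, gave a lower call in Gayal to 0 of the 39 members and to 0% of all genes. It put 36 members at p under 0.05 before adjustment, where 4.35% of all genes were lower at that p, and the smallest Benjamini-Hochberg adjusted p of a member was 0.141, for member 15. DESeq2 called 34 of the 39 lower, against 1.2% of the genes with an adjusted p. limma-voom called 0 members and 0.0213% of all genes, and edgeR without a filter on low counts called 1 member and 0.0105%. The edgeR log2 difference was -2.51 (SE 1.16, adjusted p = 0.655) for member 1, ENSBTAG00000031217. For member 2, ENSBTAG00000043560, it was -5.09 (SE 0.84, edgeR adjusted p = 0.232). Each SE was worked back from the F statistic. Nothing is read from the numbers of calls, since the members were chosen by this contrast. Nothing in the labels says that the samples are from separate animals, so p-values measure only the spread between these samples.

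The difference between batches is a contrast that the rule did not use, although it rests on the same libraries. The step of the counts also differed between the batches, and what this does to the contrast was not tested. With species in the edgeR fit, 14.6% of all genes tested differed between the batches at an adjusted p under 0.05. Among the members 4 of 39 did, 10.3%, all of them lower in batch B, where 6.89% of all genes were. No member was called higher in batch B, against 7.73% of all genes. At an unadjusted p under 0.05 there were 9 members, 23.1%, against 33.8% of all genes. DESeq2 called 9 members, against 25.4% of genes. None of these shares of the members was above that of all genes, apart from the calls lower in batch B. Calls depend on the spread between libraries, which for 35 members was above the median of all genes. No trait of the members is read from these shares. The members' median absolute log2 difference between batches was 1.28 against 0.83 for all genes.

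The 4 called members were numbers 2, 4, 17 and 25. The edgeR log2 difference of batch B against batch A was -8.38 (SE 0.97, adjusted p = 0.0145) for member 2 and -6.03 (SE 1.12, adjusted p = 0.024) for member 4. It was -3.84 (SE 0.95, edgeR adjusted p = 0.0427) for member 17 and -4.06 (SE 1.03, edgeR adjusted p = 0.0447) for member 25. Member 17 was at 3.61, 11.6 and 0.62 CPM in Banna and at 1.3, 0 and 0.148 CPM in Gayal. Member 25 was at 1.25, 5.41 and 0.365 CPM in Banna and at 0.315, 0 and 0 CPM in Gayal. In all 4 the batch B library of Banna was the lowest Banna library, and both batch B libraries of Gayal lay below the batch A one. Leaving out Banna replicate 1 gave 4 calls and leaving out Banna replicate 2 gave 3, but leaving out Banna replicate 3 or any 1 Gayal replicate gave 0.

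Members fell on both sides between the batches. Within Banna, 18 of the 39 were lower in batch B, 46.2%, against 49.7% of the kept genes. Within Gayal, 16 were lower in batch B, 41%, against 53.5%. In both species 12 members were lower in batch B and 17 were higher. The matching shares of the kept genes were not worked out, so nothing is read from these joint counts. The species by batch interaction in edgeR called 0 members and 0% of all genes, with a smallest adjusted p of 0.373 among the members.

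The mirrored rule, 4-fold or more higher in Gayal in both batches, found 63 genes. Of these, 54 separated the species over all 6 libraries, 85.7%, against 69.2% of the members. Their median Gayal mean was 6.87 CPM, and the members' median Banna mean was 3.63 CPM. At 0 in all libraries of the lower species were 8 of the 63 genes and 2 of the 39 members. Neither set was chosen independently of these values, so the differences between them were not tested.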

How the data were processed

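The authors deposited 1 table of estimated counts, whole numbers per Ensembl gene and library, with no scaling for depth. HISAT2 2.0.4 and the cattle build ARS-UCD1.2 are named per the submitters' processing notes. The annotation, the counting program and whether strand was used: not given in the sources used here. A deposited sample sheet gave batch and fibre class. The counts are treated as estimates since low counts cluster at multiples of a step (the spacing with the largest excess of genes among values up to 60). Rounding left every value as deposited.

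The members and gene lists were chosen with earlier results of these data known. Without symbols the lists could not be used, and by the rule for that case the identifiers of the 2 members with the highest mean Banna CPM are printed. The other members described were picked after their values were seen.

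Fits used edgeR 4.0.16 in R 4.3.3 with TMM scaling, filterByExpr (14112 genes, all 39 members), species and batch as terms and a robust quasi-likelihood F test. P-values were adjusted by Benjamini-Hochberg over all genes, with a threshold of 0.05. Each printed SE is the absolute log2 difference divided by the square root of the F statistic. Also run were DESeq2 1.42.0, voom in limma 3.58.1, other scalings and filters, and leaving out libraries. The rule was tested on simulated counts with 16-fold changes and counting error only, without spread between libraries. That test cannot show how often spread between libraries alone would give members. The fit was tested on counts simulated with the spread that edgeR estimated. Levels are CPM of library totals, and fitted differences use TMM-scaled totals. All fits used counts not divided by the step.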

Additional observations from a re-analysis of the deposited data

How the results depend on the processing

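The number of members, 39, fell to 16 with 0.5 CPM and to 11 with 1 CPM added before log2, to 24 with the stricter filter (1 CPM in 3 libraries and a mean of 50 counts) and to 7 at 8-fold, and it was 270 at 2-fold. With a library left out it ran from 36 to 300. It was 254 without Banna replicate 3 and 300 without Gayal replicate 1, where 1 batch alone was used, which by construction loosens the rule. It was 47 with TMM-scaled totals and 44 with DESeq2 size factors, and all 39 members were among both. Chosen after seeing the data were the next settings. The mean CPM before log2 gave 39 genes, 37 of them members, and counts divided by the step gave 40.

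The 0 members called lower in Gayal became 34 with DESeq2 and 1 without a filter on low counts, and stayed 0 in the other 12 settings. The 4 members called between batches became 9 with DESeq2, 2 with limma-voom, 2 with library totals and between 0 and 4 when 1 library was left out. The causes of these shifts were not tested. With the replicate number as a block and no batch term, edgeR called 0 members lower in Gayal. Across genes, the pairs with the same number had correlations of their deviations of 0.28, -0.48 and 0.32, and nothing shows that the numbers pair the samples. The log2 species difference of ENSBTAG00000031217 ran from -3.79 without a batch term to -1.57 without Banna replicate 2, and that of ENSBTAG00000043560 from -6.96 to -3.56. Neither was called in any setting, with adjusted p from 0.125 to 0.994 and from 0.0823 to 0.994. Depth limits the low members most: 8 had under 10 counts in every Gayal library.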
